A study of Mus musculus with 2 samples.

Results

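Homeostatic microglia genes are genes whose expression marks microglia, the resident macrophages of the brain, in their surveying state. The 33 genes described here were listed by name, matched to the gene-name field of the alignment-free transcript tables and joined by gene identifier to the gene tables, and all 33 were found among 55536 genes. Total RNA from the left cerebral cortex was sequenced; the mice were female, 18 to 20 months old and of B6CASTF1/J background, the F1 cross of C57BL/6J and CAST/EiJ. No treatment, transgene or engineered allele is given in the labels, and the libraries were made from 300 ng of RNA with added spike-in RNAs. The 2 libraries, replicates 1 and 2 of a single group, came from biosamples that share 1 donor entry, so separate animals cannot be assumed and the spread between them may be technical. With no second group, no test was possible, and every value is a description of these libraries.

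Microglia depend on the receptor CSF1R, which is activated by the growth factors CSF1 and IL34, and they hold their identity under TGF-beta signalling. The transcription factors PU.1 (encoded by Spi1) and IRF8 act across the myeloid lineage, whereas SALL1 distinguishes microglia from other macrophages. At rest microglia sense nucleotides through P2RY12 and the neuronal chemokine fractalkine through CX3CR1, and TREM2 with its adaptor TYROBP reads lipids and cell debris. The cortex was sequenced whole, so each value below sums over all cells, and fewer cells of a type cannot be told apart from less RNA per cell.

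Replicate 1 held 32357983 expected counts on genes and replicate 2 held 24798683. The 33 genes took 14293 of these (0.0442%) in replicate 1 and 9761 (0.0394%) in replicate 2, and single genes rested on 50 to 2230 and on 32 to 1438 counts. Levels are in TPM, read counts divided by transcript length and scaled to library size, so they can be compared between genes, and they come from the gene tables unless the alignment-free tables are named. The markers of the main cortical cell types were present as the tissue label says, with a median mean TPM of 508 for 5 neuronal genes, 67.3 for 5 astrocyte genes, 36.7 for 5 oligodendrocyte genes and 15.3 for 5 endothelial genes.

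All 33 genes reached 1 TPM in both libraries. The same holds for 12844 of 22015 nuclear protein-coding genes, or 58.3%. The median of the 33 levels was 5.71 TPM in replicate 1 and 4.41 in replicate 2, and the median of the 2-library means was 5.0 TPM. This lies below the median of 15.8 TPM among protein-coding genes at 1 TPM or more in both libraries. The levels spanned a wide range, with 9 genes above 10 TPM in mean, 18 from 2 to 10 and 6 under 2. The lysosomal protease gene Lgmn stood at the top with 40.8 ± 3.90 TPM (SD, n = 2), and Ptprc, which encodes the leukocyte phosphatase CD45, at the bottom with 1.05 ± 0.014.

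**Figure D1:**
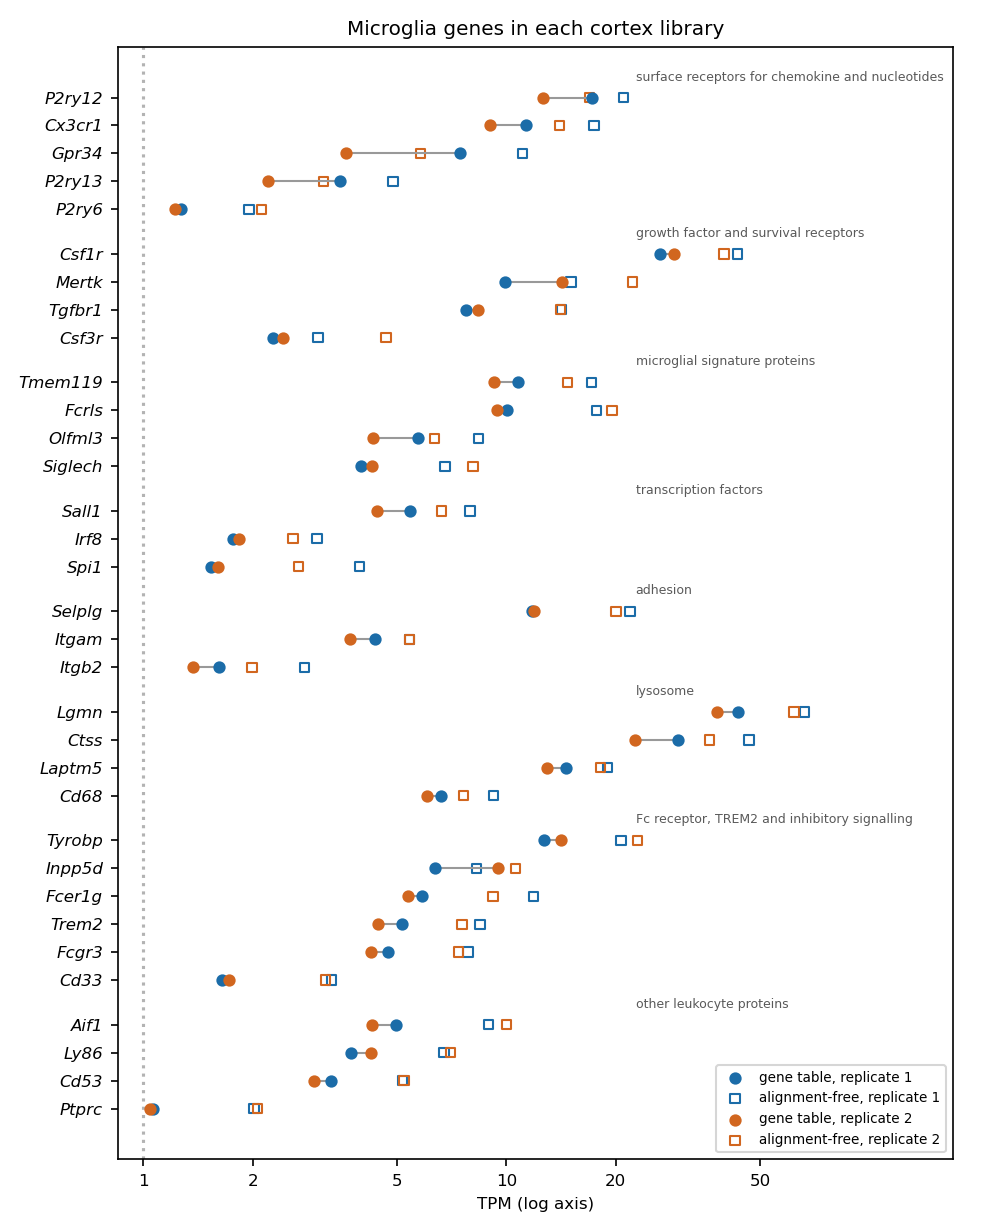
TPM of the 33 genes on a log axis, grouped by role, with filled circles for the gene tables and open squares for the alignment-free tables, blue for replicate 1 and orange for replicate 2; grey lines join the filled circles and the dotted line marks 1 TPM. Every symbol lies right of that line, Lgmn is the highest gene, and Gpr34 has the longest grey line.

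The surface receptors for chemokine and nucleotides were led by P2ry12, the ADP receptor that steers microglial processes to injury, with 17.2 TPM in replicate 1 and 12.6 in replicate 2. P2ry12 lies at chr3:59216272-59262871 on the minus strand of mm10, and 5389 bases separate it from P2ry13, its neighbour in the same family, at chr3:59207892-59210882. P2ry13 measured 3.49 and 2.20 TPM, so that P2ry12 was 4.93 and 5.72 times as high per length. Cx3cr1, the fractalkine receptor (chr9:119901616-120069879, minus strand), measured 11.4 and 9.0 TPM. Gpr34, a lysophosphatidylserine receptor on chrX:13632089-13640858, measured 7.46 and 3.62 TPM. P2ry6, a UDP receptor linked to phagocytosis, was the lowest of the 5 with 1.27 and 1.22 TPM. Each of these receptors stood lower in replicate 2 by TPM, P2ry6 by only 0.05 TPM. In the alignment-free tables P2ry6 was higher in replicate 2, with 1.95 and 2.11 TPM.

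Csf1r was the second highest of the 33 genes by the mean of both libraries, with 26.5 TPM in replicate 1 and 29.0 in replicate 2 (27.7 ± 1.73, SD, n = 2). In replicate 1 alone Ctss, with 29.8 TPM, stood above it. Csf3r, the receptor for the granulocyte growth factor, is also listed among microglial genes and measured 2.27 and 2.43 TPM. Csf1r was thus 11.7 and 11.9 times as high, and 14.3 and 8.55 times in the alignment-free tables. Mertk, a receptor tyrosine kinase for the clearance of dying cells that astrocytes also express, measured 9.89 and 14.2 TPM. Tgfbr1, the type I TGF-beta receptor, found in many cell types, measured 7.74 and 8.37 TPM. By TPM, Mertk was the one of these 4 receptors with a clear gap between the libraries, and it was higher in replicate 2. By counts Csf1r also differed and was lower in replicate 2, as given below.

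The signature proteins were at intermediate levels. Tmem119, a membrane protein used to tell microglia from other macrophages (chr5:113793729-113800516), measured 10.7 and 9.24 TPM. Fcrls, a scavenger receptor of the Fc-receptor-like family, measured 10.1 and 9.42, Olfml3, a secreted olfactomedin-domain protein, 5.71 and 4.28, and Siglech, a sialic acid-binding lectin, 3.97 and 4.26 TPM. Among the transcription factors, Sall1 measured 5.43 and 4.41 TPM, while the 2 myeloid factors were near the bottom of the list, Irf8 with 1.77 and 1.83 and Spi1 with 1.54 and 1.61. Spi1 rested on 50 and 32 counts, and the order of Irf8 and Spi1 was turned in the alignment-free tables, where Spi1 had 3.94 and 2.68 TPM and Irf8 3.01 and 2.58.

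The adhesion genes differed in level. Selplg, the P-selectin ligand, measured 11.8 and 11.9 TPM and lies 18019 bases from Tmem119 on chromosome 5. Itgam (CD11b) measured 4.36 and 3.71 TPM and Itgb2 (CD18), which encodes the other chain of the same integrin, 1.62 and 1.37. The alpha chain gene was thus 2.69 and 2.71 times as high as the beta chain gene per length, and 1.94 and 2.71 times in the alignment-free tables. The lysosomal group held the largest summed level, 94.6 TPM in replicate 1 and 79.7 in replicate 2. Lgmn gave 43.6 and 38.0 TPM of it and Ctss, a cysteine protease, 29.8 and 22.7. Laptm5, a lysosomal membrane protein of blood cells, measured 14.6 and 12.9 TPM, and Cd68, the macrosialin gene, 6.63 and 6.04.

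Within the signalling group the adaptor stood above its partners. Tyrobp measured 12.7 TPM in replicate 1 and 14.2 in replicate 2, against 5.16 and 4.43 for Trem2 (chr17:48346401-48354147), so the adaptor was 2.47 and 3.19 times as high as the receptor. Fcer1g, the related gamma-chain adaptor of Fc receptors, measured 5.86 and 5.36 TPM, and Fcgr3, a low-affinity IgG receptor that uses it, 4.72 and 4.24. The inhibitory side held Inpp5d (SHIP1), a phosphatase that limits PI3-kinase signals, with 6.35 and 9.47 TPM, and Cd33, an inhibitory sialic acid receptor, with 1.65 and 1.72. Among the remaining leukocyte genes, Aif1 (IBA1, the usual microglial stain) measured 4.97 and 4.26 TPM, Ly86, the partner of the toll-like receptor homologue CD180, 3.74 and 4.25, the tetraspanin gene Cd53 3.29 and 2.96, and Ptprc 1.06 and 1.04.

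The alignment-free tables gave a higher TPM for all 33 genes. The ratio of the 2 kinds of table ran from 1.19 for Inpp5d to 2.10 for Spi1 with a median of 1.60, close to the median of 1.62 over protein-coding genes at 1 TPM or more. No gene of the list fell under 1 TPM in either library of either kind of table.

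The promoters of the list were examined for the short core that PU.1 binds, GAGGAAG, on both strands. RefSeq (GRCm38.p6) gave promoter windows, from 250 bases before to 50 after a listed start, for 25 of the 33 genes. The core was in a window of 12 of these 25 genes (48%), against 15.4% of all 27025 genes with a window. Counted over windows it was in 13 of 32 (40.6%), against 13.6% of 32851. Among the other lists, 11 of 28 (39.3%) of the related microglia, ITAM and border macrophage genes held it. The border macrophage genes alone gave 4 of 8 (50%). Blood monocyte and neutrophil genes gave 4 of 11 (36.4%) and the other myeloid transcription factors 3 of 9 (33.3%). The neuron, astrocyte, oligodendrocyte and endothelium markers gave 5 of 15 (33.3%). The TGF-beta pathway gave 2 of 7 (28.6%), the ligands 1 of 6 (16.7%) and the lymphocyte markers 1 of 7 (14.3%). The higher share can therefore not be called particular to homeostatic microglia genes. In 10 genes a match lay wholly before a listed start. For 4 of these the stretch around the match also lies outside the span that GENCODE M21 gives the gene, and these are printed to show where the core sits. Each run is given 5′ to 3′ on the gene's strand and holds no base after the start; capitals mark GAGGAAG or, where the match is on the other strand, its complement CTTCCTC.
Trem2, chr17:48346320-48346400, plus strand: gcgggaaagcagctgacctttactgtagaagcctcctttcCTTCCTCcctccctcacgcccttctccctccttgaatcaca
Itgam, chr7:128062516-128062602, plus strand: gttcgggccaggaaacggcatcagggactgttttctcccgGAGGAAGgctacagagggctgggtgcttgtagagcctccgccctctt
P2ry13, chr3:59210884-59210970, minus strand: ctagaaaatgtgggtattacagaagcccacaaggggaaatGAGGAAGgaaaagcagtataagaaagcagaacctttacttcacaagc
Inpp5d, chr1:87620252-87620311, plus strand: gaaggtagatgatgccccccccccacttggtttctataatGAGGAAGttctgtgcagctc

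The first base of the match lay 41 bases before the start in Trem2, 84 in Itgam, 48 in P2ry13 and 20 in Inpp5d. In Fcgr3, Fcrls, Tgfbr1, Csf3r, Laptm5 and Cd33 it lay before a RefSeq start that is itself inside the GENCODE span of the gene. In Ctss and Cd53 it lay across or after the start. The letters of a joint PU.1 and IRF8 site, GGAANNGAA, were in 2 of 25 genes (8%), Ctss and Cd68, against 9.42% of all genes, and in both they lay across or after the start. The letters TATAAA were in 6 of 25 genes (24%) against 15.7%, and in Irf8 they began 31 bases before the start on the gene's strand. In Lgmn their first base lay at -37 from the start, on the opposite strand. In Ptprc, Laptm5, Fcrls and Ctss it lay between -187 and -233. The 12 genes with the core ranged from Ctss, at 29.8 and 22.7 TPM, to Cd33, at 1.65 and 1.72.

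**Figure D2:**
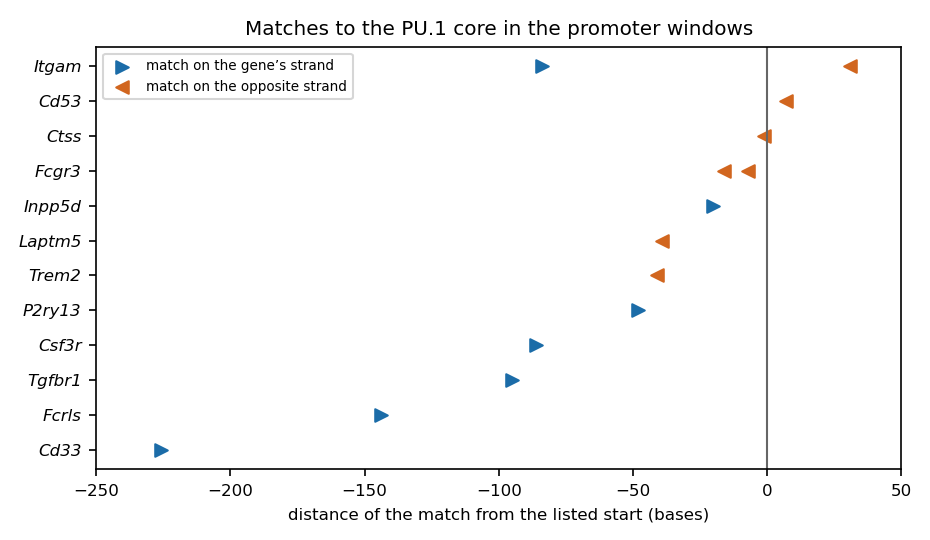
Distance of each match to GAGGAAG from the RefSeq start for the 12 genes that hold one; right-pointing triangles are matches on the gene's strand and left-pointing ones on the other. In 10 genes a match lies left of the start, and in Cd53 and Ctss the match lies after or across it.

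The ligands of the receptors were measured in the same tissue. Of 9 ligand genes, 8 reached 1 TPM in both libraries, and Csf3, the ligand of Csf3r, had no read, which allows up to 3 counts (0.0927 CPM in replicate 1 and 0.121 in replicate 2). Cx3cl1, the membrane-bound fractalkine made by neurons, measured 243 and 240 TPM, which was 21.4 and 26.7 times the level of its receptor Cx3cr1. Il34, the neuronal ligand of CSF1R, measured 45.2 and 42.1 TPM against 6.8 and 5.52 for Csf1, a ratio of 6.65 and 7.62. Gas6, a bridge between MERTK and dying cells, measured 44.0 and 42.4 TPM, 4.44 and 2.98 times the level of Mertk.

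All 12 further genes of the TGF-beta pathway reached 1 TPM in both libraries, led by Itgav (63.7 and 58.3 TPM), an integrin chain that frees latent TGF-beta, and by the SMAD repressor Ski (49.1 and 52.3). Of 13 other myeloid transcription factors 12 did, and Runx1, with 0.68 and 0.50 TPM, did not. The highest were Mef2c (264 and 252 TPM) and Mef2a (48.9 and 47.2), which neurons also express. Of 12 genes listed under signalling from ITAM adaptors, 8 did. The kinase gene Syk was at 0.98 and 1.43 TPM, Rac2 at 1.97 and 0.95, Btk at 0.38 and 0.29 and Fgr at 0.25 and 0.05. The highest of the 12 was Dok3, with 5.22 and 7.65 TPM, near the 5.86 and 5.36 of the adaptor gene Fcer1g.

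Of 18 further genes known from microglia, 13 reached 1 TPM in both libraries. The complement genes C1qb and C1qa measured 24.5 and 22.8, and 22.9 and 16.6 TPM. C3ar1, Adora3, Tlr2 and Cd86 were under 1 TPM in both libraries and Cd84, with 1.11 and 0.78 TPM, in replicate 2; Tlr2 rested on 22 and 4 counts. Without alignment, 16 of the 18 reached 1 TPM in both libraries, all but C3ar1 and Tlr2. Over all 18 the median level was 3.06 TPM, against 5.0 for the 33 genes.

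Markers of other immune cells that share genes with microglia were lower. Of 11 border macrophage genes 4 reached 1 TPM in both libraries, and their summed level was 21.9 and 21.2 TPM, of which Stab1, which some endothelial cells also express, gave 10.7 and 11.1. Mrc1, the mannose receptor of border macrophages, measured 2.24 and 2.37 TPM, so Cx3cr1 was 5.07 and 3.80 times as high. Without alignment, 8 of the 11 reached 1 TPM. Of 11 blood monocyte and neutrophil genes none reached 1 TPM in both gene tables, and their sum was 1.21 and 1.13 TPM. Ly6c2 was the highest, with 0.98 and 0.83 TPM, and with 1.71 and 1.93 it alone reached 1 TPM in both alignment-free tables. Expected counts were 0 in both libraries for S100a8, Ltf, Camp, Retnlg, Ly6g and Plac8, and S100a9, Ngp and Mpo had from 0 to 3 counts. Of 10 lymphocyte genes 1 reached 1 TPM, Cd4, with 1.78 and 2.42 TPM, while Cd3e had 0.07 and 0.04. Cd8a, Cd3g and Nkg7 were at 0 counts in the gene tables, whereas the alignment-free tables gave Cd8a 0.44 and 0.64 TPM, Cd3g 0.13 and 0.42 and Nkg7 0. Cd3d had 0 and 1 counts in the gene tables, and 0.78 and 1.35 TPM without alignment. Blood leukocytes also express several of the 33 genes, such as Ptprc, Itgb2, Cd53 and Csf3r, and the part of such cells in their levels was not tested.

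**Figure D3:**
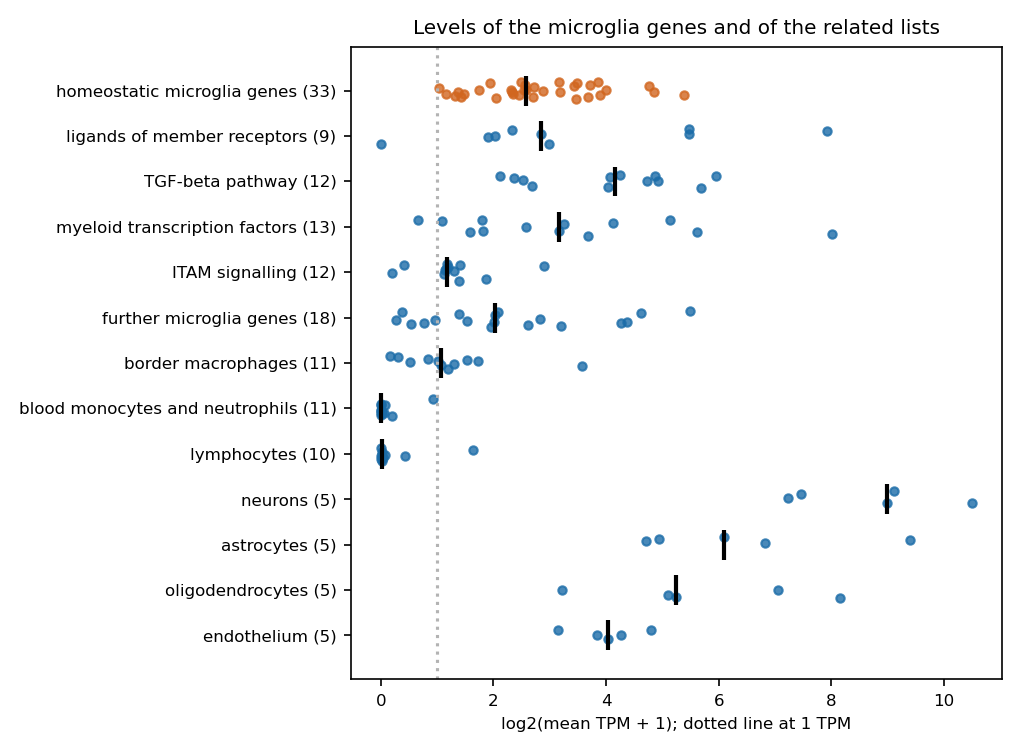
log2(mean TPM + 1) of each gene in the 33-gene list (orange) and in 12 related lists (blue), with the number of genes in brackets, a black bar at the median and a dotted line at 1 TPM; vertical scatter has no meaning. The blood monocyte, neutrophil and lymphocyte genes gather at 0 apart from Ly6c2, Cd79a and Cd4, and the median of the neuronal genes lies furthest right.

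The libraries were then compared gene by gene as the log2 ratio of replicate 2 to replicate 1 after scaling the counts over all genes. Of the 33 genes, 27 were lower in replicate 2 and 6 higher, with a median log2 ratio of -0.19. The median was 0.00 over all 18246 genes scaled, of which 49.97% were below 0, and -0.01 over the 11381 genes within the same range of counts, of which 52.4% were below 0. Scaling to the spike-ins moved the median of all genes by 0.16 and that of the 33 genes to -0.03. Such scaling shifts every gene by nearly the same amount. The gap of 0.19 between the 33 genes and all genes was therefore bound to stay and is not tested by it. With spike-in scaling 20 genes were lower and 13 higher; the 7 that changed sign, Laptm5, Selplg, Trem2, Siglech, Itgam, Csf3r and Ptprc, differed by 0.12 or less on the log2 scale before. With alignment-free counts 27 genes were again lower and 6 higher, though Tyrobp, Tgfbr1, Trem2 and Ptprc changed sign. By TPM 21 genes were lower in replicate 2, and by alignment-free TPM 22. The share of all genes lower by TPM was not counted, so these numbers cannot be called particular to the list. With 1 library on each side the difference cannot be assigned to anything but these libraries.

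Past 1.5-fold, 3 of the 33 genes were lower in replicate 2, where 3.62% of all genes scaled were, and none was higher, where 10.7% were. The 3 were Gpr34, P2ry13 and Aif1. With spike-in scaling Gpr34 (log2 ratio -0.94) was still past 1.5-fold, P2ry13 (-0.54) and Aif1 (-0.44) were not, and Mertk (0.63) was past it in the other direction. Gpr34 had 311 counts in replicate 1 and 111 in replicate 2, a log2 ratio of -1.10 with a 95% counting interval from -1.43 to -0.79, and it was the single gene of the list past 2-fold. P2ry13, with 191 and 90 counts, had a log2 ratio of -0.70 (-1.08 to -0.34). Aif1 had 64 and 32 counts and a log2 ratio of -0.59 whose interval, from -1.28 to 0.01, held 0. The alignment-free counts gave -1.02 for Gpr34 and -0.73 for P2ry13, and -0.27 for Aif1, under 1.5-fold.

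The counting intervals of 20 genes held 0, 11 lay below it and 2 above. The same count was not made over all genes scaled, so these numbers cannot be called particular to the list. The 2 above were Mertk, with 937 and 1000 counts and a log2 ratio of 0.47 (0.34 to 0.60), and Inpp5d, with 333 and 336 counts and 0.39 (0.17 to 0.62). These intervals cover counting error only, and the reads carry no molecular identifiers. The TPM bounds in the authors' gene tables lay apart between the libraries for 9 of the 33 genes, or for 16.8% of all genes scaled. They were Lgmn, Ctss, P2ry12, Cx3cr1, Gpr34, Olfml3, Sall1 and P2ry13, lower in replicate 2, and Mertk, higher.

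By role, the receptors for chemokine and nucleotides were lower in replicate 2 in 5 of 5 cases, with a median log2 ratio of -0.37 (from -1.10 for Gpr34 to -0.21 for P2ry6). The 4 lysosomal genes, the 4 signature genes, the 3 transcription factors and the 3 adhesion genes were lower as well, with medians of -0.21, -0.25, -0.25 and -0.12. The growth factor receptors were split 2 and 2 and the signalling genes 3 and 3. With spike-in scaling Laptm5, Siglech, Selplg and Itgam of these groups turned to higher. In the groups lower throughout, the counting intervals of P2ry6, Laptm5, Cd68, Siglech, Spi1, Irf8 and the 3 adhesion genes held 0. By TPM, Siglech (3.97 and 4.26), Selplg (11.8 and 11.9), Irf8 (1.77 and 1.83) and Spi1 (1.54 and 1.61) were higher in replicate 2. Among the related lists, 16 of 18 further microglia genes were lower (median -0.18), and so were 5 of 5 oligodendrocyte genes (median -0.33). Of 5 genes each, 3 neuronal (median -0.07), 2 astrocyte (0.01) and 4 endothelial genes (-0.10) were lower. Of the 8 ligand genes scaled, 7 were lower (median -0.10). The border macrophage genes were split 4 and 5 with a median of 0.02. The oligodendrocyte markers thus moved with the microglia genes between the libraries, as did most endothelial and ligand genes by sign. The part of any of these in the difference was not tested.

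**Figure D4:**
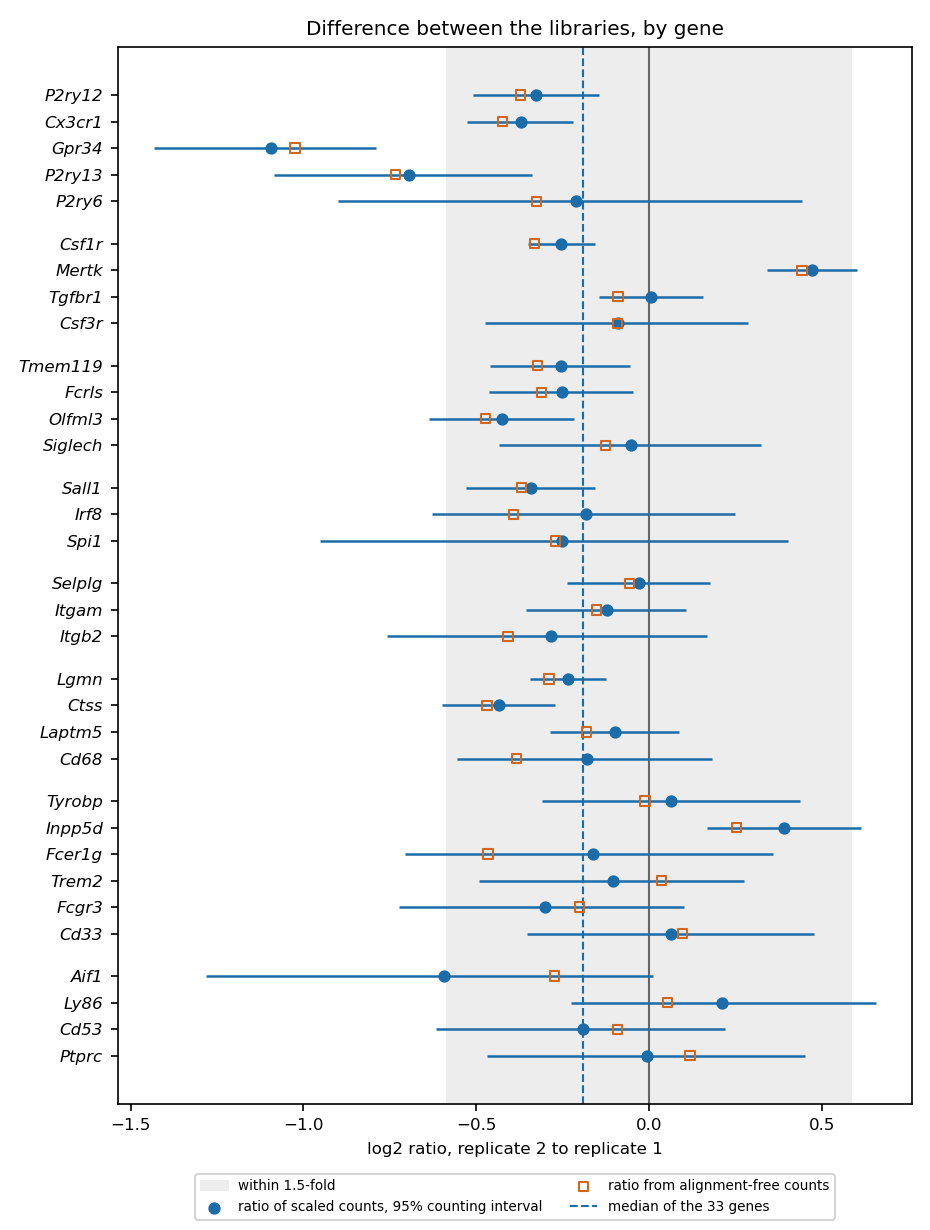
log2 ratio of replicate 2 to replicate 1 for each gene, with blue circles for scaled counts and their 95% counting intervals, open orange squares for alignment-free counts, a grey band for less than 1.5-fold and a dashed line at the median of -0.19. Gpr34 lies furthest left at -1.10, and the intervals of Mertk and Inpp5d lie right of 0.

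TPM and counts did not always point the same way. Csf1r was higher in replicate 2 by TPM (26.5 and 29.0) but lower by scaled counts (log2 ratio -0.25, interval -0.35 to -0.16) and by alignment-free TPM (43.4 and 39.8). In the alignment-based transcript tables the transcript Csf1r-205, of 416 bases, held 1.09% of the gene's TPM in replicate 1 and 23.3% in replicate 2, and the alignment-free tables gave it 0 in both. The full-length Csf1r-201 (3870 bases) led in all tables, with 91.6% and 67.8% in the alignment-based and 89.3% and 81.5% in the alignment-free ones. The level of Csf1r by TPM thus moved with the share given to a short transcript.

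The same transcript had the highest TPM in both libraries and both kinds of table for 20 of the 33 genes. Between libraries the leader was shared for 30 genes in the alignment-based tables and for 27 in the alignment-free ones. Sall1, P2ry13 and Cd53 have 1 annotated transcript. With Tmem119, Mertk and Ly86 they make up the 6 genes whose leader held 90% or more in each table; Tmem119-201 held 100% throughout and Mertk-201 at least 98.0%. P2ry12 changed leader with the kind of table: P2ry12-202 held 68.7% and 50.2% in the alignment-based tables and about 0 in the alignment-free ones, which gave P2ry12-201 75.4% and 75.7%. Lgmn did likewise, with 60.4% and 70.8% for Lgmn-202 by alignment and 93.7% and 78.2% for Lgmn-201 without it. Gpr34-202 held 74.1% and 89.0% by alignment and 35.0% and 31.9% without it. Tyrobp-201 held 51.4% and 100% by alignment, and Tyrobp-202 92.4% and 65.0% without it. For these 4 genes the leading transcript depended on the kind of table.

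Some genes held much of their TPM in transcripts that the annotation does not class as protein-coding. The leader of Olfml3 in all 4 tables was Olfml3-202, annotated as a retained intron, with 89.7% and 84.1% by alignment and 94.3% and 88.8% without it. Aif1-205, a retained intron transcript of 462 bases, held 42.5% and 73.7% of the Aif1 TPM by alignment and 14.1% and 28.3% without it. In Ptprc the retained intron transcripts together held 45.3% and 52.4% by alignment and 45.4% and 60.1% without it. Olfml3, Aif1 and Ptprc were the 3 genes whose coding share was under 50% in any table, and 18 genes kept it at 90% or more in all. In Inpp5d that share was 57.4% and 54.5% by alignment and 56.9% and 60.0% without it. Its leader by alignment was Inpp5d-203, a retained intron transcript of 364 bases, with 29.1% and 35.0%. Trem2-201, the full-length coding transcript, held 86.0% and 74.0% by alignment and 83.4% and 71.1% without it. Trem2-203, a retained intron transcript, held 5.83% and 9.48%, and 10.6% and 18.0%. Total RNA holds unspliced as well as spliced molecules, and the 2 were not told apart here.

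**Figure D5:**
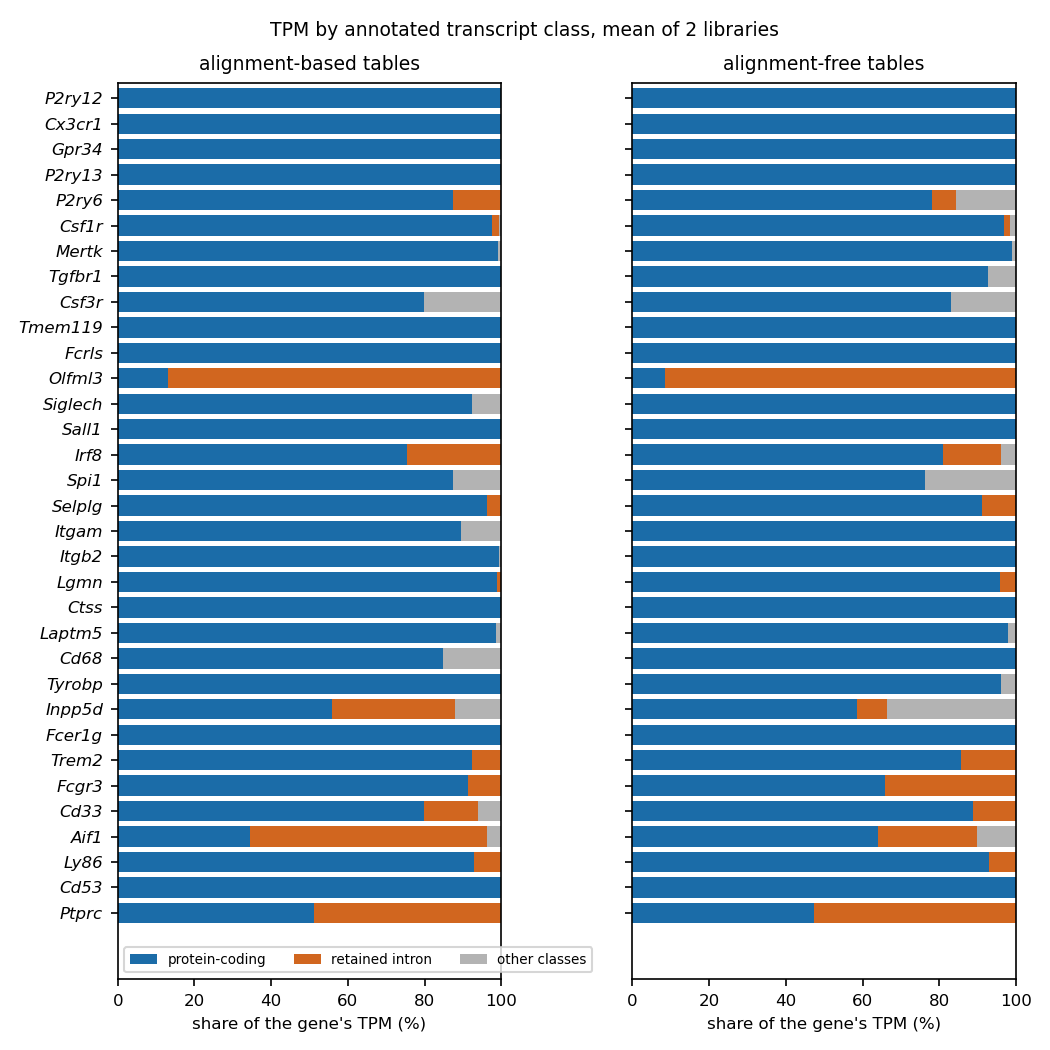
Share of each gene's TPM in transcripts annotated as protein-coding (blue), retained intron (orange) or other classes (grey), as the mean of both libraries, for the alignment-based tables on the left and the alignment-free tables on the right. Olfml3 is mostly orange in both panels, and Aif1, Ptprc and Inpp5d are mixed.

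For 12 of the 33 genes another annotated gene overlaps on either strand, and 4 share exon bases with one. P2ry12 and P2ry13 lie inside Med12l, a neuronally expressed gene on the opposite strand with 20.9 and 25.7 TPM, which was higher in replicate 2 (log2 ratio 0.22) where P2ry12 and P2ry13 were lower; P2ry12 shares 9 exon bases with it. Gpr34 lies inside Cask, a synaptic scaffold gene on the opposite strand with 50.7 and 47.3 TPM and a log2 ratio of 0.02. Csf1r shares 873 exon bases (15.1% of its own) with Hmgxb3 on the opposite strand, which had 17.1 and 20.5 TPM and a log2 ratio of 0.16. Irf8 lies inside Gm20388 on the same strand, with 1.86 and 3.37 TPM, and Itgam shares 3450 exon bases (68.7%) with Gm49368, which was given 0 counts. Whether the counting used strand is not stated, so reads of these opposite-strand pairs may not be told apart where exons overlap. Expected counts were fractional for 2 of the 33 genes, Fcgr3 (131.57 and 82.08 counts) and Csf3r (139.92 and 101), compared with 17.4% of all genes scaled. A whole count does not show that no reads were shared: those of Itgam were whole (374 and 264).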

How the data were processed

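Gene and transcript tables of 2 total RNA-seq libraries were used. Per the text deposited with each library, values refer to mm10 and GENCODE M21; the gene table and one transcript table were made from a transcriptome alignment, and the other transcript table from reads without one. For aligner, quantifier and strand setting: not given in the sources used here. The authors' tables hold, per the file headers, expected counts, estimated counts (alignment-free), TPM, and posterior mean TPM with bounds; neither kind of count is normalized. The deposited percent values (isoform shares) were recomputed from TPM in both kinds of table.

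Symbols, classes and overlaps came from GENCODE M21. Spike-ins (0.452% and 0.406% of counts) and short-RNA entries were left out of library sizes. Expected counts were rounded, filtered at a mean of 10 counts (all 33 genes passed) and scaled with TMM (edgeR 4.0.16, R 4.3.3); ratios are differences of log2 CPM with a prior count of 2. Counting intervals are exact binomial at 95%. Alternatives used DESeq2 1.42.0 size factors, spike-ins, other thresholds and single libraries. All members may be named; of each related list, the 3 highest genes, those under 1 TPM where a count speaks of them, and those differing over 2-fold. Some genes under this rule are not reported here. The members and lists were chosen with earlier results of these data known.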

Additional observations from a re-analysis of the deposited data

How the results depend on the processing

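The count of 33 genes at 1 TPM in both libraries was the same at 0.5 TPM, in the alignment-free tables, by posterior mean TPM, with TPM rescaled over nuclear protein-coding genes and in each library alone, and was 27 at 2 TPM. The median level of 5.0 TPM was 8.42 in the alignment-free tables and 11.3 with TPM rescaled over nuclear protein-coding genes, and from 4.41 to 5.71 in single libraries. At 2 TPM, 2 genes lay below the threshold in both kinds of table, where none did at 1 TPM. The median log2 ratio stayed below 0 in the 7 other settings, from -0.27 with alignment-free counts to -0.03 with spike-in scaling. With spike-ins, Gpr34 was lower and Mertk higher past 1.5-fold and P2ry13 and Aif1 were within it; at a threshold of 2-fold 1 gene passed. Of single genes, 32 had an alignment-free TPM that differed from the gene-table TPM by more than 1 SD. No paired analysis was possible because the labels give 1 group.

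With 2 libraries of 1 group, the values describe these libraries and not age, sex or strain. The counting intervals of Spi1, P2ry6, Aif1 and Fcer1g, each on under 100 counts, span more than 2-fold. Reads were placed on the mm10 reference, and the effect of CAST/EiJ variants was not analysed here.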
